A study of Mus musculus with 15 samples.

Results

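Exc_18 is one of the 26 fine clusters into which the authors divided the excitatory neurons of the mouse prefrontal cortex (PFC), and its members are the cells that the deposited table of cells assigns to that cluster. There are 622 such cells among 35360 retained cells of 15 libraries, and 20377 of all cells lie in an excitatory cluster. Of the 622, 246 come from the 12 libraries of adult mice, named P60 here after postnatal day 60, and 376 from the 3 libraries of mice at postnatal day 21 (P21). All mice were male C57BL/6N, the labels give the adults as 8 to 10 weeks old, and each library is described as the dissociated tissue of 2 pooled mice, although it is not clear how the P21 mice were divided over the 3 libraries. The adults had learned to press a lever for intravenous infusions of saline or of cocaine (self-administration) and were taken during the maintenance phase or after 48 h or 15 d of withdrawal, which gives 6 groups of 2 libraries. The paper has catheters placed at P60, before self-administration and withdrawal, so by that course the adults were older than P60 when taken. Their age then also differs between time points, and how the labelled 8 to 10 weeks match this course is unclear. The saline mice went through the same food training and catheter surgery as the cocaine mice. The P21 mice had no such procedure. One field of the labels calls the tissue NAc, whereas titles, source and methods give the PFC.

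Excitatory neurons of the neocortex release glutamate and are sorted into layers, and neurons of 1 layer differ by the region to which they send their axon. The corticothalamic neurons of layer 6 return the cortical signal to the thalamus and are known by transcription factors such as Foxp2, Tle4 and Tbr1. The paper describes the time from weaning to adulthood as a period that is believed to bring increased plasticity.

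The depth behind the values differed widely between libraries. A library held 1055 to 4439 retained cells with 8375172 to 42892922 UMIs (unique molecular identifiers, each counting 1 captured mRNA molecule). Exc_18 had 2 to 63 cells in a P60 library and 191, 72 and 113 cells in P21 replicates 1, 2 and 3. Levels are given as CPM, the UMIs of a gene per 1000000 UMIs of all genes except mitochondrial and ribosomal protein genes, summed over the Exc_18 cells of a library. Only libraries with at least 10 such cells were used for levels. These are 7 P60 libraries, namely cocaine replicate 2 of maintenance, replicate 2 of saline and of cocaine at 48 h, both saline and both cocaine libraries at 15 d, and the 3 P21 libraries. Any pair of libraries shared at most 27 cell barcodes. P21 replicate 1 stood apart from replicates 2 and 3 on a score of differences between libraries of 1 group, computed in the other excitatory neurons (2.74 against -1.51 and -1.23), so the total counts of calls by age and those of the main gene lists are also given without it.

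Exc_18 cells of P60 held more molecules than those of P21. The median number of UMIs per cell was 11053.5 ± 795 (SD, n = 6) over saline P60 libraries and 8657 ± 1506 (SD, n = 3) at P21, a difference of -2396.3 for P21 (exact permutation test, two-sided, p = 0.0238, smallest possible 0.0119). The median number of genes per cell was 3607 ± 97.0 against 3095 ± 304 (exact permutation p = 0.0119, the smallest possible). The median share of mitochondrial UMIs was 2.57% ± 0.40 against 3.85% ± 0.43 (exact permutation p = 0.0119). Cocaine and saline libraries of P60 did not differ detectably in these measures (exact permutation p = 0.565, 0.769 and 0.269). The part of these differences in the results by age was not tested.

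Exc_18 was a small share of the excitatory neurons in every adult library and a larger one at P21. Its share of the cells in excitatory clusters was lowest in cocaine 48 h replicate 1 at 0.388% (3 of 773 cells, 95% Wilson interval 0.132% to 1.13%) and highest among P60 libraries in cocaine 15 d replicate 2 at 2.86% (62 of 2166, 2.24% to 3.65%). The 3 P21 libraries had 7.70%, 4.65% and 5.93% and lay above all 12 P60 libraries. This difference by age is a description, because the authors placed P21 cells into the P60 clusters by correlation, and the size of the population and that assignment cannot be told apart. Within P60, the share was 1.37% ± 0.90 in cocaine and 1.44% ± 0.87 in saline libraries (SD, n = 6 each), with ranges that overlapped widely. The difference of -0.0623 percentage points did not pass an exact permutation test within time points (two-sided, p = 0.889, smallest possible 0.00926). Intervals of shares cover counting error only.

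**Figure D1:**
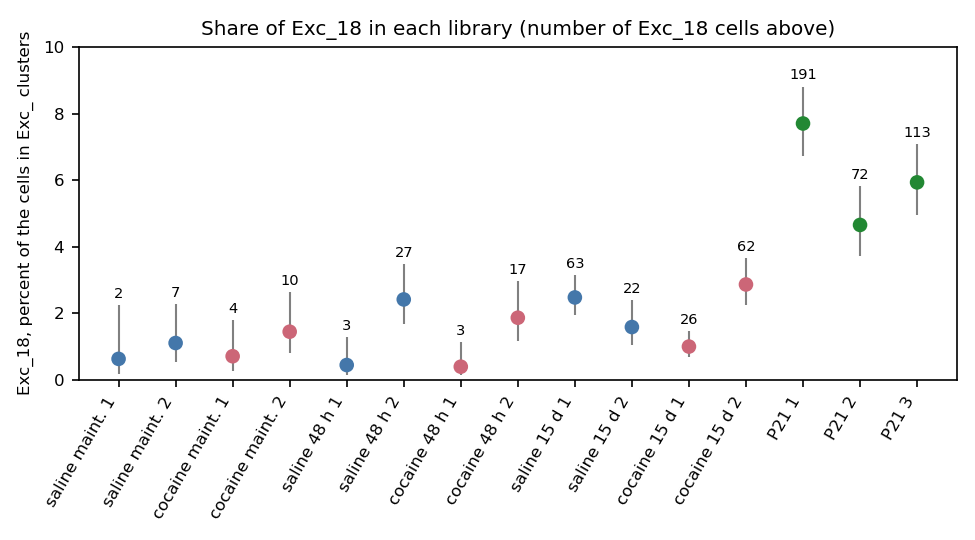
Percent of the cells in excitatory clusters that belong to Exc_18 (y axis) in each of the 15 libraries (x axis, blue saline, red cocaine, green P21), with 95% Wilson intervals and the number of Exc_18 cells above each point. The 3 P21 libraries, at 4.65% to 7.70%, lie above the P60 libraries, at 0.388% to 2.86%.

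Most Exc_18 cells also carried the excitatory class in the deposited table. That class was given to 595 cells, while 13 were classed as astrocytes, 4 as oligodendrocytes, 3 as endothelial cells, 3 as inhibitory neurons, 2 as microglia and 2 as newly formed oligodendrocytes. Of these 27 cells, 18, 4 and 4 were in P21 replicates 1, 2 and 3, and 1 was in a P60 library. The authors removed cells with unusually many detected genes as likely double droplets, and no further doublet caller was run here.

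The markers of layer 6 corticothalamic neurons were high in Exc_18. All comparisons of Exc_18 with other clusters are descriptions without a test, since the clusters were drawn from these same genes. The summed level of 11 corticothalamic markers was 3105 CPM as the mean of 7 P60 libraries, rank 3 of the 26 excitatory clusters. Exc_19 had the highest sum at 3919 CPM, and the median of the other 25 clusters was 521 CPM. Of the 11 markers, 8 had their level in Exc_18 among the 3 highest clusters.

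Among the transcription factors of that list, Tle4 (a co-repressor), with 205 ± 29.0 CPM (SD, n = 7), and Tbr1, with 155 ± 22.0 CPM, had their highest mean in Exc_18, above the next cluster (203 CPM in Exc_21 and 142 CPM in Exc_20) by less than the spread between libraries. Foxp2, at 119 ± 19.5 CPM, ranked after Exc_20 at 172 CPM and Exc_19 at 151 CPM. Hs3st4, an enzyme that sulfates heparan sulfate, was also highest in Exc_18 at 212 ± 30.8 CPM, close to Exc_20 at 191 CPM. Syt6, a synaptotagmin, stood at 75.4 ± 13.2 CPM and Rprm, a cell cycle inhibitor and common layer 6 marker, at 1555 ± 126 CPM, both rank 3. The neurotensin receptor Ntsr1, often used to mark these neurons, was captured too rarely to be of use, with 4.39 ± 4.00 CPM in Exc_18 and 8.58 CPM in Exc_19.

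Markers of neighbouring types ranged from a few CPM to over 100 CPM in sum. The 4 layer 6b markers summed to 3.56 CPM in Exc_18 at P60, with Nxph4 and Moxd1 at 0 in all 7 libraries. The 5 near-projecting markers summed to 24.1 CPM against 3085 CPM in Exc_21, and the 5 markers of layer 2/3 to 23.9 CPM, rank 23 of 26. The 5 layer 5 intratelencephalic markers summed to 73.8 CPM, rank 21, of which Etv1 made up 48.1 CPM (21.7 to 80.7 CPM over the 7 libraries). The list of layer 5 pyramidal tract genes summed to 156 CPM, rank 3, of which Bcl11b (a transcription factor of subcortically projecting neurons) made up 148 ± 22.2 CPM. Slc17a7, the vesicular glutamate transporter of cortical excitatory neurons, was at 555 ± 51.3 CPM (rank 2), whereas Gad1, which makes GABA, was at 0.679 CPM.

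**Figure D2:**
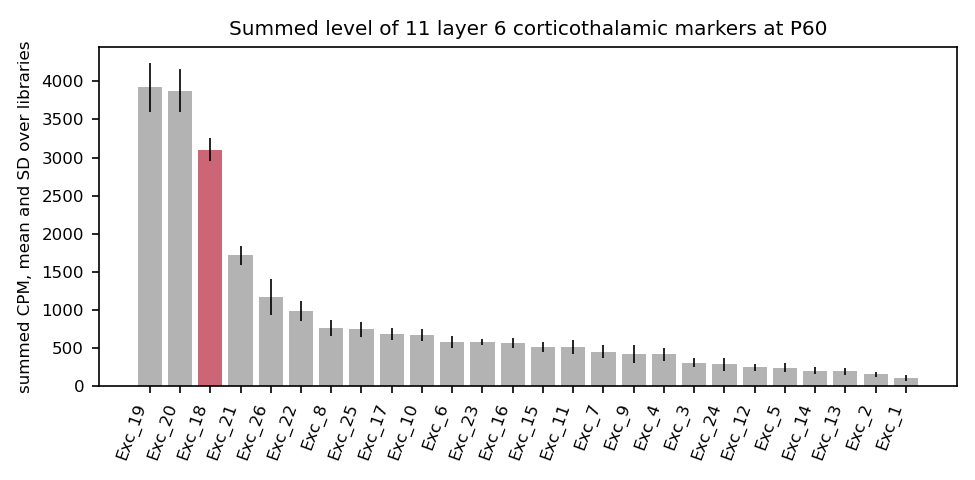
Sum of the levels of 11 layer 6 corticothalamic markers (y axis, CPM from 0) in each of the 26 excitatory clusters (x axis, sorted) at P60, as the mean and SD over those libraries in which the cluster had 10 cells or more. Exc_19, Exc_20 and Exc_18 (red, 3105 CPM) stand above the other clusters.

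The expression profile of Exc_18 was most like those of Exc_19 and Exc_20. Over 8078 genes the mean log2 profile at P60 gave a Pearson correlation across genes of 0.974 with Exc_19 and 0.970 with Exc_20, followed by 0.921 with Exc_26. These values describe clusters from the same libraries, and genes are not independent replicates. The 12 genes with the highest ratio of Exc_18 to the mean of the other 25 clusters, on CPM + 1, were Gm10334, Sla, Igfbp4, Sema5a, Hs3st4, Syt6, Rnf152, Foxp2, Rell1, Tle4, Rprm and Pitpnc1, with ratios from 9.72 for Gm10334 down to 6.09 for Pitpnc1. Gm10334 has a near-identical transcript end elsewhere in the annotation, so reads could have been split between copies, and the same holds for Syt6. Sema5a, a transmembrane semaphorin that guides axons, had 36.6, 58.8 and 130 CPM as lowest, median and highest of the 7 P60 libraries, and the highest one had 10 Exc_18 cells. Sla, an adaptor protein that dampens receptor signalling, was at 50.6 ± 20.2 CPM in Exc_18, with 54.9 CPM in Exc_19.

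To show where Exc_18 differed from Exc_19 and Exc_20, the 8 genes highest and the 8 lowest in Exc_18 against these clusters were taken. Igfbp4, 1 of the 8 highest, at chr11:98902558-98913969 (plus strand, NCBIM37, the mm9 build of the counts), encodes a secreted protein that binds insulin-like growth factors. Its level in Exc_18 was 196.5, 245 and 282 CPM as the lowest, median and highest of the 7 P60 libraries, against 38.3, 78.6 and 113 CPM in Exc_19 and Exc_20 together and 9.64, 15.1 and 22.4 CPM in the other 23 excitatory clusters. The ranges of the 3 populations did not overlap. Exc_26 was the only cluster with a higher mean, at 244 against 242 CPM in Exc_18, which is within the spread.

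Nefm, a neurofilament subunit of the axon skeleton at chr14:68700647-68742903 (minus strand, where its annotation overlaps Nefl on the other strand), was higher in Exc_18 than in any other excitatory cluster, with 182, 262 and 446 CPM as lowest, median and highest P60 library. Exc_19 and Exc_20 together had 82.0, 117 and 152.5 CPM. The other genes higher than in both alike clusters, Cd302, Slc30a4 (a zinc transporter), Fmnl1, Itgav (an integrin subunit), 6330527O06Rik and Brap, exceeded the higher of these 2 clusters 2.28-fold (Brap) to 3.41-fold (Cd302, 34.5 ± 10.2 CPM) on CPM + 1. Several of them were not high among excitatory neurons at large. Cd302 ranked 11 of 26 and 6330527O06Rik 17 of 26. The level of Slc30a4 was 119 CPM in cocaine maintenance replicate 2 and no more than 51.0 CPM in the other P60 libraries.

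Nnat, an imprinted gene of developing brain whose product sits in the endoplasmic reticulum, at chr2:157385814-157388258 (plus strand, overlapping Blcap on the other strand), was nearly absent from adult Exc_18 cells. Its level there was 0, 6.55 and 14.3 CPM as lowest, median and highest of the 7 P60 libraries, while Exc_19 and Exc_20 together had 134, 182 and 315.5 CPM and the other 23 clusters 61.0, 92.1 and 184 CPM. All Exc_18 libraries thus lay below all libraries of these pooled cells, although Exc_18 ranked 20 of 26 for Nnat and single clusters went down to 1.84 CPM. Tmem91, a small membrane protein, was also lower, with a mean of 6.18 ± 5.33 CPM in Exc_18 against 59.4 CPM in Exc_19 and 53.3 CPM in Exc_20. The atypical cadherin Cdh13 (18.8 ± 7.88 against 109 and 86.7 CPM), Zcchc12, the protease Prss12, the ephrin ligand Efnb3, Lsp1 and Rwdd2a were lower as well, with ratios to the mean of both clusters from 0.201 (Cdh13) to 0.388 (Rwdd2a). Lsp1 was still rank 3 of 26 clusters at 35.3 ± 9.84 CPM.

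Shares of cells with a UMI followed the same order after each cell was thinned to 2000 UMIs. At P60, Igfbp4 was found in 35.0% of 246 Exc_18 cells, in 12.4% of Exc_19, 18.3% of Exc_20 and 2.31% of the cells of the other 23 clusters, and in 0.729% of endothelial cells. Nefm was found in 39.0% of Exc_18 cells against 16.7% in Exc_19 and 15.4% in Exc_20. Nnat was found in 1.63% of Exc_18 cells, 16.4% of Exc_19 and 12.6% of Exc_20, with 0.785% in endothelial cells. Without thinning, the shares in Exc_18 were 84.6% for Igfbp4, 79.7% for Nefm and 6.10% for Nnat, at a median of 10918 UMIs per cell in Exc_18, 12401 in Exc_19 and 4516.5 in endothelial cells. Gad1 was found without thinning in 1.22% of Exc_18 cells and 1.26% of endothelial cells, a share at the background. After thinning it was found in 0 of 246 Exc_18 cells, which allows up to 1.54% of cells with a UMI at 2000 UMIs per cell (upper Wilson bound), and in 0.365% of endothelial cells.

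**Figure D3:**
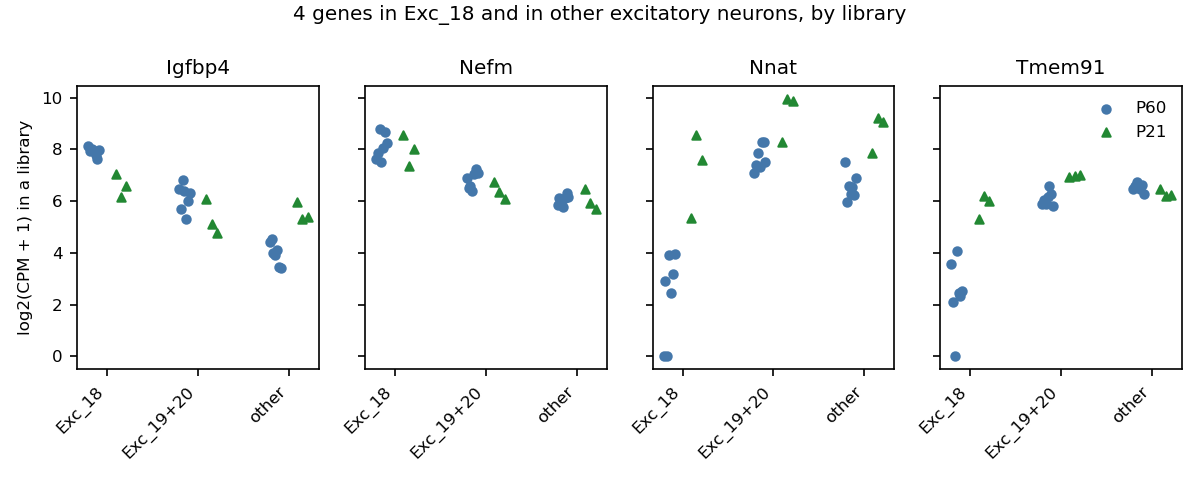
Levels, as log2(CPM + 1), of Igfbp4, Nefm, Nnat and Tmem91 in Exc_18, in Exc_19 with Exc_20, and in the other 23 excitatory clusters (x axis), with 1 point per library (7 P60 libraries as circles, 3 P21 libraries as triangles). In Exc_18 at P60, Igfbp4 lies between 196.5 and 282 CPM and Nnat at no more than 14.3 CPM, outside the ranges of the other cells.

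To find what changed in Exc_18 between P21 and P60, the 3 saline P60 libraries with 10 or more cells (48 h replicate 2 and both of 15 d) were compared with the 3 P21 libraries by edgeR's quasi-likelihood test. These saline mice had been through training, catheter surgery, self-administration and withdrawal, and the P21 mice had not. Age and procedure therefore cannot be told apart in this comparison, nor in those of changes by age below. Fold changes are P60 over P21 on the log2 scale, and genes were called where they changed over 1.5-fold and had a p adjusted by Benjamini and Hochberg under 0.05. Of 6730 genes tested, 408 were called (6.06%), 138 higher (2.05%) and 270 lower (4.01%) at P60, and the median change over all genes was -0.01. Of the genes tested, 13 of 21 axon growth genes and 8 of 10 immediate early genes were lower at P60, and Igfbp4 was higher. Without P21 replicate 1 these were 15 of 21 and 8 of 10. The number of calls was 92 without saline 15 d replicate 1, 149 without saline 48 h replicate 2, 838 without P21 replicate 1, 221 without P21 replicate 2 and 232 without P21 replicate 3. In these fits 0 of the 408 genes turned direction. That was largely fixed beforehand, since the fits share libraries and nearly all called genes had groups that did not overlap. In bulk sums of a cluster, a gene lower in every cell and a gene lost from some cells cannot be told apart.

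Of 25 genes of axon growth, 21 were tested, 13 were lower and 1 was higher at P60, and the median change was -0.73. Marcksl1, a protein that links membrane and actin in growing processes, had 9.83, 12.7 and 9.04 CPM in the 3 saline P60 libraries and 182, 188 and 203 CPM at P21. The 2 groups lay far apart, and the gene fell by 4.08 ± 0.27 (SE) on the log2 scale (edgeR adjusted p = 7.85e-10). Its relative Marcks fell from 213 ± 40.0 to 95.7 ± 15.6 CPM (SD, n = 3 each). The collapsin response mediators Dpysl3 (57.2 ± 2.73 to 13.7 ± 2.65 CPM), Dpysl2, Dpysl5 and Crmp1, the growth cone proteins Gap43 and Basp1, Stmn2, the tubulins Tubb2a, Tubb2b and Tuba1a and the semaphorin receptor Nrp1 were lower too. Gap43 remained abundant, with 1061, 1218 and 1117 CPM at P60 and 1414, 2539 and 2469 CPM at P21. Robo2, a receptor for the guidance cue Slit, went the other way, with 32.8, 55.4 and 58.8 CPM at P60 against 26.1, 28.1 and 16.3 CPM at P21 (log2 change 1.04 ± 0.30). Tubulin genes and Marcksl1 have near-identical transcript ends elsewhere, so their counts may be split between copies.

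Immediate early genes are switched on within minutes of neuronal activity or of other stimuli. Of 15 on the list, 10 were tested in Exc_18, 8 were lower at P60 and none was higher, and their median change was -1.59. Fos, a subunit of the AP-1 factor, had 29.5, 44.3 and 49.7 CPM in the saline P60 libraries and 182, 208 and 204 CPM at P21. Junb, another AP-1 subunit, had 29.5, 22.2 and 76.9 CPM against 242, 208 and 195 CPM, and Npas4, a factor induced by calcium influx in neurons, had 0, 18.99 and 18.1 CPM against 88.4, 82.5 and 76.2 CPM. None of these ranges overlapped, and the log2 changes were -2.26 ± 0.21 for Fos (adjusted p = 6.89e-07), -2.57 ± 0.30 for Junb and -2.61 ± 0.37 for Npas4. Nr4a1, an orphan nuclear receptor, fell from 43.4, 67.5 and 85.7 CPM to 32.8, 30.1 and 22.6 CPM. Arc, Dusp1 and Btg2 were lower as well, and Ier2 had 2 UMIs in all 3 saline P60 libraries against 49.2 ± 25.6 CPM at P21. Egr1, at 272, 296 and 231 CPM against 292, 379 and 394 CPM, and Jun did not pass the test.

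With cells of the excitatory class alone, Fos was lower in P21 replicates 1 and 2, with 137, 140 and 204 CPM in the P21 libraries, and Junb was at 215, 160 and 197 CPM. All of these values lay above those of the saline P60 libraries. The 4 cocaine libraries of P60, which this test did not use, held 24.1 to 55.2 CPM of Fos and 4.01 to 15.9 CPM of Npas4, within or near the range of saline. Endothelial cells of the same libraries had far more Fos, 8057 to 10619 CPM in the 3 saline P60 and 7720 to 8328 CPM in the P21 libraries.

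The promoters of genes that fell together are shown because cAMP response elements are a known feature of such genes. The 250 bases before the start of transcription were read from RefSeq (GRCm38.p6, a later build than the one of the counts) and searched for the core of the cAMP response element, TGACG, on both strands, so that its reverse complement CGTCA also stands in capitals. The palindrome TGACGTCA holds both words, which then overlap. The sequences stand 5′ to 3′ on the strand of the gene, at chr12:85473640-85473889 (plus) for Fos, chr8:84978749-84978998 (minus) for Junb, chr19:4989972-4990221 (minus) for Npas4 and chr15:101266596-101266845 (plus) for Nr4a1.
Fos: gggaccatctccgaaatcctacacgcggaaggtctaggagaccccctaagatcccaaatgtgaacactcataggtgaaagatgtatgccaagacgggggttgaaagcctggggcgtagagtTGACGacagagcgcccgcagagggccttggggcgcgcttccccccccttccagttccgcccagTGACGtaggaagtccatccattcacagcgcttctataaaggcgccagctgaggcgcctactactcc
Junb: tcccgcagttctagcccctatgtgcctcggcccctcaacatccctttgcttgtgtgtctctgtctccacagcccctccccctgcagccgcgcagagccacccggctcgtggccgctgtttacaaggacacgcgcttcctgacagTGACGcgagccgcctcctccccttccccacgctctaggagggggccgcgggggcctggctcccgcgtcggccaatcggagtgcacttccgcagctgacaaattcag
Npas4: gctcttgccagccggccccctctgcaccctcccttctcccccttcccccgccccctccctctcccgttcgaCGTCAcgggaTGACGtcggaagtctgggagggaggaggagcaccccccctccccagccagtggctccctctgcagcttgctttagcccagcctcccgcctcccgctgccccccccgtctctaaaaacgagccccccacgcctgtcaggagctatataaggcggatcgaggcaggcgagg
Nr4a1: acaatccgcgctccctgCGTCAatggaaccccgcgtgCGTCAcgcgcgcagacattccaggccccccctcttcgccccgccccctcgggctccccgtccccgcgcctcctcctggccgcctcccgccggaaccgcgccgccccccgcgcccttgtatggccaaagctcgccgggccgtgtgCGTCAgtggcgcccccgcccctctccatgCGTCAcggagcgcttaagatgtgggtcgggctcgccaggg
Of the 8 genes that fell, 6 had a promoter entry and all 6 held the word. Over the whole list, 9 of the 11 members with an entry held it at their first listed start, as did 17.8% of all 32851 promoter windows. A match describes the letters of the window and not a bound site.

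Of 10 corticothalamic markers tested, which Exc_18 shares with Exc_19 and Exc_20, all had a change below 0, with a median of -0.49. Of these, 3 passed the test as lower, where 4.01% of all genes tested did, and 7 did not pass. Without P21 replicate 1, 4 of 9 passed, among them Rprm and Hs3st4 but not Fezf2. Syt6 had 101.5, 68.0 and 81.4 CPM at P60 against 168, 163 and 163 CPM at P21 (log2 change -1.02 ± 0.20, adjusted p = 0.00293). The thyroid hormone binding protein Crym fell from 995 ± 102 to 624 ± 36.1 CPM and the transcription factor Fezf2 from 123 ± 41.5 to 68.6 ± 23.7 CPM. Foxp2 (124 ± 10.9 CPM at P60, 170 ± 35.6 at P21), Tle4 (216.3 ± 27.01 and 265 ± 9.83) and Rprm were not called.

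Synaptic receptors and channels were called about as often as all genes, with 4 of 79 called (5.06%, against 6.06% of all genes tested). Without P21 replicate 1, 8 were higher and 3 lower of 78, where 838 of all 6816 genes were called. None of the 8 AMPA receptor genes, 10 GABA-A receptor subunits, 2 kainate receptor subunits, 4 metabotropic glutamate receptors and 7 neuromodulator receptors tested was called in either direction. Without P21 replicate 1, however, Gabra3 was called as higher and Gabra5 and Gabrb2 as lower among 10 GABA-A subunits. Among 3 NMDA receptor genes, Grin2a was lower at P60 (31.7 ± 11.9 against 58.2 ± 10.4 CPM), but it was not called without P21 replicate 1. Of 29 potassium channel genes, Kcnab2, an auxiliary subunit, was higher at 131 ± 24.8 against 60.5 ± 1.03 CPM, and the leak channel Kcnk1 was lower. Of 16 sodium and calcium channel genes, the sodium channel Scn1a was higher, with 88.4, 87.0 and 113 CPM at P60 against 51.2, 37.5 and 50.3 CPM at P21. A missed threshold does not show that the levels were equal.

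In each of the other lists at most 4 genes were called, against 6.06% of all 6730 genes tested, and these calls are given as values of single genes. Of 25 chromatin genes, the DNA methyltransferase Dnmt3a (42.5 ± 11.1 against 156 ± 36.6 CPM), the methylcytosine oxidase Tet1 and Ube2d3 were lower at P60 and the arginine methyltransferase Prmt1 was higher. Of 17 cholesterol synthesis genes, Sqle and Insig1 were lower. Of 78 nuclear oxidative phosphorylation genes, Ndufv1 was higher and Cyc1 lower, with a list median of 0.10. Among the neurofilament and mature axon genes, the calcium sensor Hpca was higher. Snap25, a SNARE protein of the synapse, was the called member of the 6 excitatory neuron markers, with 5556 ± 499 CPM at P60 and 3657 ± 148 CPM at P21. Hsp90aa1 was the 1 called gene of 9 heat shock genes, higher at P60. Of 8 neuropeptide genes, Grp, which encodes gastrin-releasing peptide, was lower, and near-projecting Lypd1, Etv1 of layer 5 and Cplx3 of layer 6b were lower as the called members of their lists.

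The genes with the largest rises from P21 to P60 were Relt, Pdlim1, Ifitm2, H2-T23, Efcab10, Pcgf5, Ccnd1, Zbtb16, Cd302 and 2010204K13Rik. Relt, a receptor of the tumour necrosis factor family, rose from 5.56, 3.75 and 4.08 CPM to 39.3, 26.9 and 22.6 CPM (log2 change 2.55 ± 0.45, adjusted p = 0.00104). Ccnd1, cyclin D1, rose from 17.2 ± 7.78 to 63.2 ± 12.5 CPM, and Cd302, 1 of the genes that set adult Exc_18 apart from its alike clusters, from 12.1 ± 2.58 to 39.7 ± 9.84 CPM. Ifitm2, an interferon-induced protein, and H2-T23, a nonclassical MHC class I gene, reached 29.9 ± 4.01 and 21.4 ± 5.09 CPM. Among the largest falls, in order of size, were those of Marcksl1, Tubb2b, Gm10071, E530001K10Rik, 2410004B18Rik, Nr4a3, Npas4 and Junb. Ier2 and Cplx3 were also named by the rule but rest on too few UMIs at P60 to be ranked. Tubb2b had 0, 12.7 and 9.04 CPM in saline P60 libraries against 56.2, 120 and 105 CPM at P21. Cplx3, a complexin, had 3 UMIs in all in the saline P60 libraries, so its fold is not given. Gm10071 and Relt also have near-identical transcript ends elsewhere, and Gm10071 overlaps another gene.

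Of the genes that set adult Exc_18 apart from Exc_19 and Exc_20, Igfbp4 and Cd302 were called as higher and Tmem91, Cdh13 and Efnb3 as lower at P60. All were picked by their P60 levels, in libraries that include the saline ones tested here. That choice favours such differences by age, so these calls are a description. The assignment of P21 cells to the P60 clusters by correlation cannot be told apart from a change. Efnb3, an ephrin, fell from 84.3 ± 26.1 to 16.2 ± 11.2 CPM (log2 change -2.06). Cdh13 was at 13.1, 17.4 and 27.1 CPM in the saline P60 libraries and at 41.7, 111 and 57.1 CPM at P21 (log2 change -1.82). Nnat, at 6.55, 14.2 and 4.52 CPM against 39.5, 375 and 190 CPM, lay lower in all saline P60 libraries but did not pass the test (log2 change -4.20 ± 1.44, edgeR adjusted p = 0.205), with P21 replicate 1 well below the other P21 libraries. In Exc_19 and Exc_20 together, Nnat was at 312, 987 and 930 CPM at P21, above Exc_18 in each library. Nefm, at 229, 182 and 262 CPM against 380, 165 and 261 CPM, overlapped between the ages.

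**Figure D4:**
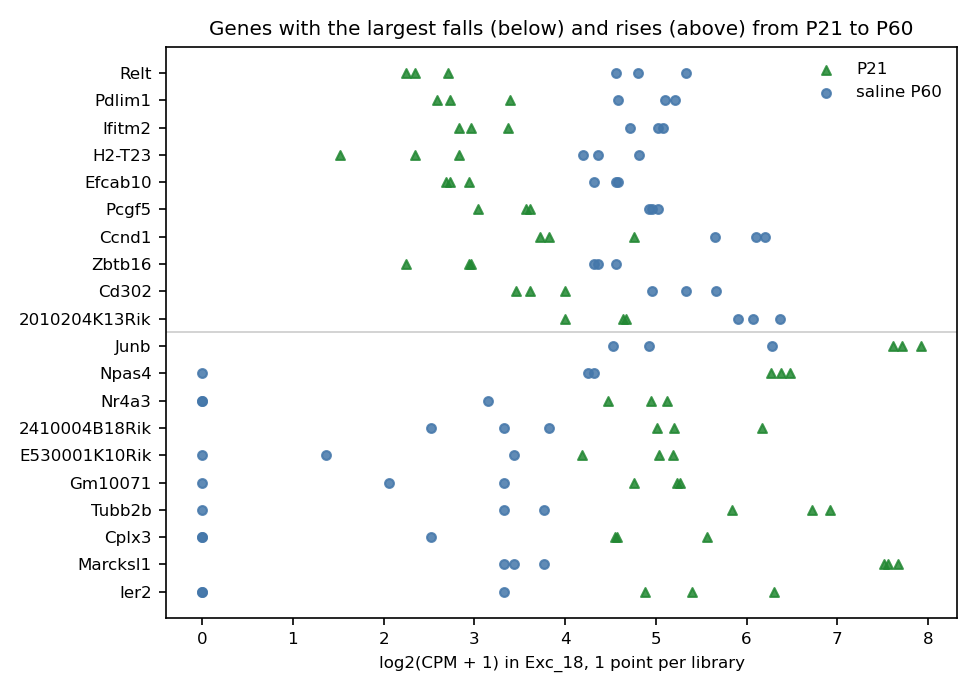
Level in Exc_18 as log2(CPM + 1) (x axis) of the 10 genes with the largest rise (upper part) and the 10 with the largest fall (lower part) from P21 to P60, with 1 point per library (3 saline P60 libraries in blue, 3 P21 libraries in green). The groups do not overlap for any of the 20 genes, as the rule for naming them required, and Marcksl1 goes from between 182 and 203 CPM at P21 to between 9.04 and 12.7 CPM.

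Of the glial markers tested, only Slc1a2 was called by age. The 7 oligodendrocyte markers summed to 75.3 to 231 CPM in Exc_18 of saline P60 libraries and to 218 to 1583 CPM at P21, and to 115 to 312 CPM at P21 once cells of other classes were left out. The 6 astrocyte markers summed to 901 to 1085 CPM and 1506 to 1725 CPM, most of it from the glutamate transporter Slc1a2, which passed the test (890 ± 118 against 1468 ± 14.7 CPM). Gja1 and Gfap were at 0 in the saline P60 libraries. Microglial markers summed to 32.8 to 55.4 CPM and 22.5 to 131 CPM, endothelial markers to 28.5 to 40.7 CPM and 21.8 to 184 CPM, and inhibitory neuron markers to 20.6 to 22.9 CPM and 20.6 to 52.3 CPM. With cells of the excitatory class alone, 415 of 6592 genes were called, and 377 of them were among the 408.

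Whether Exc_18 changed more or less than other excitatory neurons was asked with an interaction of age and cell group, with the library as a block. This also measures how P21 cells were assigned to clusters, and the assignment and a change within the cells cannot be told apart. Against all other excitatory neurons, 139 of 13097 genes were called (1.06%), 55 with a more positive (0.42%) and 84 with a more negative change in Exc_18 (0.641%), at a median difference of -0.03. Of the 5 astrocyte markers tested, all had a difference below 0 (median -1.39), with Gja1 and Aldoc called. All 7 oligodendrocyte markers also had one below 0 (median -0.95), and none of them was called. With Exc_18 restricted to cells of the excitatory class and the compared neurons left as they were, 148 of 12972 genes were called. Of these, 112 were among the 139. Neither Aldoc nor Gja1 was called there, and 2 of the 139 genes turned direction. The count was 86 without saline 15 d replicate 1, 87 without saline 15 d replicate 2 and 101 without P21 replicate 1. Of the 11 corticothalamic markers, all tested, Hs3st4, Tle4, Foxp2 and Syt6 were called with a more positive difference and none with a more negative one. These differences rest on the cells compared, which include Exc_19 and Exc_20. Both clusters are high in these markers, and they made up 4.23% to 10.5% of the compared cells in the 3 saline P60 libraries and 15.5% to 17.9% at P21. With both left out, none of the 11 markers was called with a more positive difference and Crym was called with a more negative one, and against Exc_19 and Exc_20 alone none was called. Foxp2 then had 3.16 to 5.35 CPM in saline P60 libraries and 5.62 to 7.36 CPM at P21 in the other 23 clusters, beside 124 ± 10.9 and 170 ± 35.6 CPM in Exc_18. Over all genes, 178 of 12792 were called with both clusters left out, and 127 of these were among the 139. The mix of the other 23 clusters also differs between libraries, and its part was not tested.

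Igfbp4 gave the largest positive difference among the genes named by the rule, which asks for 20 CPM in a group. Penk, with 0 UMIs in Exc_18 at P21, was also called and gets no fold. In Exc_18, Igfbp4 rose from 132, 71.3 and 93.8 CPM at P21 to 242, 245 and 222 CPM in saline P60 libraries, while in the other excitatory neurons its level went from 61.8, 38.1 and 38.8 CPM to 24.9, 20.3 and 16.9 CPM. All 6 libraries of each cell group followed this order without overlap, and the changes differed by 2.35 ± 0.15 on the log2 scale (edgeR adjusted p = 1.74e-53). Igfbp4 was also picked above as high in Exc_18 by P60 levels, in libraries that include these saline ones. That choice favours a positive difference, so the value is a description. Exc_26, the other cluster with high Igfbp4, is part of the compared neurons. Hist1h2bc, a histone gene, was steady in Exc_18, with 163 to 229 CPM at P60 and 159 to 174 CPM at P21, but lower at P60 in the other neurons, with 24.3 to 31.4 CPM against 124 to 126 CPM (difference 2.20 ± 0.16). Trank1 was higher at P60 in Exc_18 (91.7, 71.2 and 67.8 CPM against 37.8, 37.5 and 21.8 CPM) and not in the other neurons (35.1 to 38.3 CPM against 41.1 to 47.0 CPM). In cocaine maintenance replicate 2, which was not part of this test and had 10 Exc_18 cells, Trank1 was at 21.7 CPM and Hist1h2bc at 54.2 CPM.

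Among the largest negative differences were Tmem91, E530001K10Rik, Tubb2b, Grp, Ass1 and Npas4. Tmem91 had 3.28, 15.8 and 4.52 CPM in Exc_18 of saline P60 libraries and 38.9, 73.1 and 62.6 CPM at P21, whereas the other neurons had 86.9 to 92.9 CPM and 80.8 to 92.3 CPM (difference -2.46 ± 0.35). Tmem91 was picked above as low in Exc_18 by its P60 levels, which favours a negative difference, so this value is a description. Grp in Exc_18 was at 32.8, 42.7 and 13.6 CPM against 171, 105 and 135 CPM at P21, and in the other neurons at 109 to 136 CPM and 115 to 142 CPM (difference -2.08 ± 0.22). Of the other P60 libraries, Grp reached 130 CPM in cocaine maintenance replicate 2 and lay between 17.0 and 27.1 CPM in the other 3. Ass1, an enzyme of the urea cycle that serves arginine synthesis, was at 9.88 to 11.5 CPM in the other neurons at P21 and at 87.9 to 102 CPM at P60, but at 9.52 to 19.5 CPM and 9.04 to 45.9 CPM in Exc_18. Of 14 immediate early genes, Fos, Arc and Npas4 had a more negative change in Exc_18, and of 22 axon growth genes Marcksl1, Dpysl3, Tubb2b and Tuba1a did, with Robo2 the other way.

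Against Exc_19 and Exc_20 alone, few differences were called. Of 9031 genes, 19 passed (0.21%), 3 positive (0.0332%) and 16 negative (0.177%), at a median of -0.04. The count was 35 without saline 15 d replicate 1, 44 without P21 replicate 3 and 20 without P21 replicate 1. Of the 19 genes, 13, 16 and 10 were among these calls. DESeq2 called 5, of which 2 were among the 19. None of the 11 corticothalamic markers and 13 immediate early genes tested was called (edgeR). Grp had, among the named genes, the smallest adjusted p, with 75.9, 72.7 and 64.8 CPM in Exc_19 and Exc_20 at P60 and 92.8, 93.7 and 61.1 CPM at P21, a change that differed from that of Exc_18 by -1.93 ± 0.27 (adjusted p = 1.70e-05). Trank1 (1.14 ± 0.27) and Lrrc4b, a synaptic adhesion protein (1.37 ± 0.33), were the named positive ones. Tubb2b, Tubb2a, Tmem91, Etv1, Tshz2, Zfp101, Sebox, Leprot and Hnmt had a more negative change in Exc_18. Apoe, an abundant transcript of astrocytes, was also called, with 355, 43.1 and 31.3 CPM in Exc_18 at P21. The first of these values was 104 CPM among cells of the excitatory class.

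The effect of cocaine on Exc_18 could be tested at 48 h and at 15 d of withdrawal, in a fit of the 7 P60 libraries with 10 or more cells that share an estimate of the spread. At 48 h each arm has 1 library, assumed to vary like the others. Of 5557 genes 0 were called (0.0%) by edgeR, with 274 at an unadjusted p below 0.05 and a smallest adjusted p of 0.340. DESeq2 also called 0, with 8 at an unadjusted p below 0.05. For maintenance, no saline library had 10 cells. With no minimum, edgeR called 0 of 4080 genes there, with 179 at an unadjusted p below 0.05.

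At 15 d, 48 of 5557 genes were called (0.864%), and all 48 were higher after cocaine. Cck, which encodes the neuropeptide cholecystokinin, had 321 and 355 CPM in Exc_18 of the cocaine libraries and 44.3 and 36.2 CPM in the saline libraries (log2 change 3.03 ± 0.23, adjusted p = 8.81e-10). The next genes by size were Fbxl15, Dut (which hydrolyses dUTP), Pde6d, Pfn1, 2310036O22Rik, Gm1673, Dhps, Fbxo2 and Cyc1. Pfn1, the actin-binding profilin, had 128 and 139 CPM against 28.5 and 54.3 CPM, and Cyc1, a subunit of respiratory complex III, had 369 and 283 CPM against 90.2 and 109 CPM. From the gene lists, Fezf2, Junb, Grin2a, Nrgn and Cyc1 were called beside Cck, 1 in each list. Of 78 oxidative phosphorylation genes, Cyc1 was the only one called, and their median was -0.03. Without cocaine 15 d replicate 2 the count was 2, without saline 15 d replicate 1 it was 8, without saline 15 d replicate 2 it was 117, and DESeq2 called 2.

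Most of the 48 genes were ordered alike in other cells of the same libraries. Both cocaine libraries lay above both saline libraries for 47 of the 48 in the other excitatory neurons, where 13.4% of the 5557 genes did so, and for 44 in endothelial cells (1003, or 18%, of the 5557). Saline replicate 2 lay above saline replicate 1 for 41 in Exc_18 (51.4% of the 5557), 48 in the other excitatory neurons (38.6%) and 44 in endothelial cells (32.9%), although both are of 1 group. The median level of the 48 genes in Exc_18 was 181 and 197 CPM in the cocaine 15 d libraries, 86.2 and 106 CPM in the saline 15 d libraries, 56.8 to 114 CPM in the 8 earlier libraries (2 to 27 Exc_18 cells each), and 276, 160 and 147 CPM at P21. In endothelial cells it was 129 and 114 CPM with cocaine, 43.2 and 70.02 CPM with saline, 35.6 to 49.2 CPM in the earlier libraries and 131, 70.8 and 62.5 CPM at P21. Cck in endothelial cells was at 311 and 187 CPM with cocaine and at 39.1 and 110 CPM with saline. The part of such differences between libraries in the 48 calls was not tested beyond these values.

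**Figure D5:**
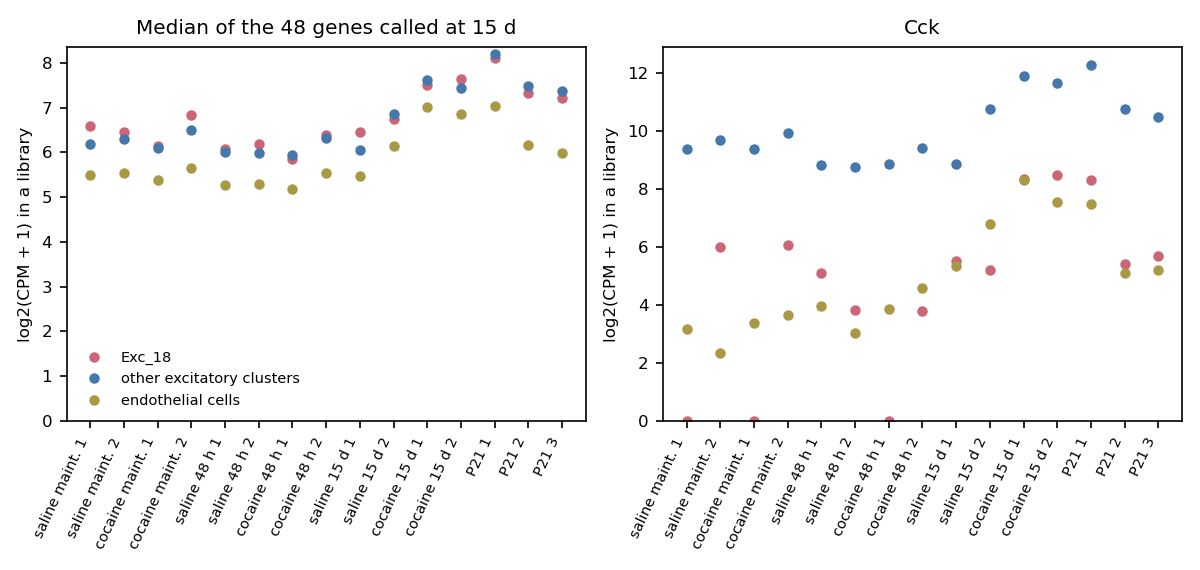
Median level of the 48 genes called at 15 d (left) and level of Cck (right), as log2(CPM + 1), in Exc_18 (red), the other excitatory clusters (blue) and endothelial cells (ochre) of each of the 15 libraries (x axis). The cocaine 15 d libraries are higher than the saline 15 d libraries in all 3 cell groups, and for the median P21 replicate 1 is higher still in each, at 276 CPM in Exc_18.

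No change with cocaine was shown to be particular to Exc_18. The interaction of treatment and cell group, over 48 h and 15 d, called 0 of 13863 genes (edgeR, 473 at an unadjusted p below 0.05, smallest adjusted p = 0.0770, and 0 by DESeq2 with 103). For Cck the cocaine change in Exc_18 minus that in the other excitatory neurons was 0.09 ± 0.57. The effects at 15 d and 48 h did not differ for any of 5557 genes at this threshold (0 called by edgeR with 287 at an unadjusted p below 0.05, and 0 by DESeq2 with 7). The comparison by age and the comparison at 15 d share both saline 15 d libraries, so their calls are not independent. Cyc1, Junb, Grin2a and Fezf2, called in both, were at 108, 76.9, 45.2 and 94.9 CPM in saline 15 d replicate 2 and at 90.2, 22.2, 26.9 and 61.7 CPM in replicate 1.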

How the data were processed

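Dissociated PFC tissue of 15 libraries was profiled by droplet single-cell RNA-seq (10x Genomics). The authors used Cell Ranger to align reads to mm9, and the deposited matrices hold its raw counts of UMIs for each gene in each cell. Per the study's methods, the authors removed cells with over 10% mitochondrial UMIs or unusually many genes, clustered adult cells with Seurat 2.1.0 after aligning saline and cocaine cells, and assigned P21 cells by correlation. The deposited table of cells gives each cell's library, class, cluster, totals and mitochondrial fraction, the latter computed by the authors as mitochondrial over all UMIs. The UMI totals and gene numbers of all 35360 retained cells equalled those of the matrices.

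Of 26145 listed genes, 25980 remained once those of the mitochondrial genome (13) and of ribosomal proteins (152) had been dropped. Counts were summed over the Exc_18 cells of a library, with a minimum of 10 cells, and tested with edgeR 4.0.16 (R 4.3.3) by the quasi-likelihood method (TMM scaling, filterByExpr, robust). Standard errors are edgeR estimates on the log2 scale. Cocaine was tested in 7 libraries of 5 groups, which leaves 2 residual degrees of freedom, both from the 15 d groups. The interactions compare cell groups within libraries, with the library as a block. Single values were tested by exact permutation (scipy 1.17.1). Each library pools 2 mice, and libraries were the replicates. When tested on simulated counts, in which 200 genes had a log2 change of 1, the fit recovered 59.5% for age (6730 genes), 48.5% at 15 d and 12.0% at 48 h (5557 genes each). It also called unchanged genes, 13 for age and 12 at 15 d. The simulated counts varied gene by gene, without differences shared by the genes of a library. These rates may therefore not hold for the real counts.

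Named genes were the called genes with groups that did not overlap and 20 CPM in the higher group (10 per direction), up to 4 called members of a gene list by adjusted p, the layer markers, and for the profile the 12 genes highest against all clusters and 8 each highest and lowest against the 2 most alike clusters. The other called list members, and those not called, that the text names were chosen after their values were seen. The members and lists were chosen with earlier results of these data known. Alternatives covered DESeq2 1.42.0, scaling, filters, thresholds, the minimum of cells, left-out libraries, the class of the cells and the clusters compared. Near-identical transcript ends were searched with minimap2 2.31-r1302 at 95% identity. A gene withheld from the text is not reported here. The joined expression matrix was not used, since it holds the same cells.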

Additional observations from a re-analysis of the deposited data

Results flagged for a closer look

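The change from P21 to P60 differed between Exc_18 and other cells for 139 genes against all other excitatory neurons and for 19 against Exc_19 and Exc_20 (edgeR, adjusted p below 0.05, interaction of age and cell group), and the differences of log2 changes below come from these tests. They carry with them how P21 cells were assigned to clusters, which was not tested. Igfbp4, Hs3st4, Syt6, Foxp2, Tle4 and Tmem91 were also picked for the profile by their P60 levels, which favours their differences.

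Against all other excitatory neurons, the change was more positive in Exc_18 for the corticothalamic markers Syt6 (0.77), Foxp2 (0.76), Hs3st4 (0.67) and Tle4 (0.61) and for Bcl11b (0.84). The compared neurons hold Exc_19 and Exc_20, which made up 7.53% of their cells at P60 and 16.9% at P21. With both clusters left out, none of these 4 corticothalamic markers was called, and the marker Crym was called with a more negative difference. Against both alone, 0 of 11 corticothalamic markers were called. The change was also more positive for the AMPA receptor auxiliary Cacng3 (0.85) and the channel genes Kcnj4 (0.79), Kcnab2 (0.72) and Scn1a (0.70). These genes and Bcl11b stayed called with both clusters left out. Others with a more positive change were Igfbp4 (2.35), Hist1h2bc (2.20), Ifitm2 (1.65), Nudt10 (1.57), Gm15270 (1.42), Trank1 (1.38), Slc25a33 (1.36), Rab8b (1.345), the clock-controlled factor Dbp (1.33), Rgs5 (1.32) and the methyl-CpG binding family member Mbd3 (1.12). Of these, Ifitm2 and Rgs5 were no longer called with both clusters left out. The annotation of Gm15270 overlaps another gene on the same locus.

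The change was more negative in Exc_18 for the immediate early genes Npas4 (-1.96), Fos (-1.18) and Arc (-1.065) and for the axon growth genes Tubb2b (-2.31), Dpysl3 (-1.90), Marcksl1 (-1.45) and Tuba1a (-0.63). Against Exc_19 and Exc_20 alone, no immediate early gene was called, and of the axon growth genes only Tubb2b and Tubb2a were. Against all other excitatory neurons, the change was also more negative for the genes that follow. They were Tshz2 (-2.80), Tmem91 (-2.46), E530001K10Rik (-2.42), the heat shock gene Hspa1a (-2.19), Grp (-2.08), Ass1 (-2.06), Tppp3 (-1.95), Zfp101 (-1.845), Camk2d (-1.74), Aldoc (-1.39), Grm3 (-0.97), Etv1 (-0.89), Sqle (-0.80) and Kcnip3 (-0.64). Aldoc is also an astrocyte marker, and its level in Exc_18 at P21 was 88.5 ± 81.4 CPM (SD, n = 3).

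Against Exc_19 and Exc_20, the change was more positive for Lrrc4b (1.365) and Trank1 (1.14). It was more negative for Tshz2 (-2.68), Zfp101 (-2.10), Apoe (-1.98), Grp (-1.93), Tubb2b (-1.895), Tmem91 (-1.68), Sebox (-1.50), Etv1 (-1.44), Leprot (-1.27), Hnmt (-0.92) and Tubb2a (-0.60).

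Among the 7 P60 libraries, 4 of the 41 groups of values tested held 1 library far from the others, where chance gives about 1 in 20. In cocaine maintenance replicate 2, which had 10 Exc_18 cells, Sema5a was at 130 CPM (next highest 68.8), Slc30a4 at 119 CPM (next 51.0) and Zfpm2 at 75.8 CPM (next 41.1). In cocaine 15 d replicate 1, Prss12 was at 28.1 CPM (next 16.4).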

How the results depend on the processing

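No paired analysis was possible because the replicate numbers of the P60 libraries were given in accession order and pair no samples. The 408 calls by age became 208 with DESeq2 (181 shared), 46 under Bonferroni adjustment, 149 with saline 15 d alone, 201 with P21 replicates 2 and 3 summed, 192 with equal numbers of cells (3669 genes tested) and 826 with the library score as a covariate, and 92 to 838 with 1 library left out. Of the calls, 33.8% were higher at P60, against 19.6% under Bonferroni adjustment, 46.1%, 21.3% and 21.1% without P21 replicates 1, 2 and 3, and 224 of 498 with all P60 libraries. The 48 calls at 15 d became 2 with DESeq2, 14 under Bonferroni adjustment and 90 with the library score, and 2 to 117 with 1 library left out. At 48 h, 0 to 6 genes were called with 1 library left out. The 139 calls of the interaction with other excitatory neurons became 49 with DESeq2 and 86 to 144 with 1 library left out. Of the 139, 2 changed sign with Exc_18 restricted to cells of the excitatory class. With Exc_19 and Exc_20 left out of the compared neurons there were 178 calls, 1 of the 139 changed sign (Hs3st4, -0.018), and Syt6, Foxp2, Tle4, Ifitm2, Rgs5 and Tshz2 were no longer called. The 19 calls against Exc_19 and Exc_20 became 5 with DESeq2, 31 with no filter and 33 with Exc_18 restricted to the excitatory class (42.4% positive against 15.8%), and 14 to 44 with 1 library left out. In both interactions the compared neurons were not restricted by class. The interaction with cocaine gave 3 calls with DESeq2 size factors and 0 to 2 with 1 library left out. The difference in share between cocaine and saline lay between -0.39 and 0.27 points with 1 library left out, and above 0 at 0.061, 0.018, 0.183, 0.27, 0.249 and 0.086 in 6 of these. Of the 8 genes highest against the most alike clusters, 5 stayed with saline libraries alone and 4 with at least 20 cells per library, and of the 8 lowest 5 stayed with at least 20 cells. The cause of these shifts was not tested. Apart from Hs3st4, none of the named genes changed direction in 882 refitted values by age, 221 at 15 d, 484 against other excitatory neurons and 130 against Exc_19 and Exc_20, and 703, 169, 349 and 88 of these passed the test. The refits share most libraries with the main fits, and many named genes were picked for groups that did not overlap. A kept direction was thus largely fixed by the choice. Genes that passed in every refit were 6 of 48 by age, 9 of 44 against other excitatory neurons and 0 of 13 against Exc_19 and Exc_20. The library score, the class of the cells, the compared neurons without Exc_19 and Exc_20 and fits with no minimum of cells were chosen after seeing the data. Fits of maintenance or of all time points with a minimum of cells were not run, since no saline maintenance library had 10 cells, and neither was 48 h at 20 cells or without either of its libraries. Depth limits genes under about 20 CPM, which is few UMIs in the smaller libraries.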
